A study of Mus musculus with 6 samples.

Results

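Osteoclast genes are 10 genes that mark or run the osteoclast, the multinucleated cell of the monocyte and macrophage lineage that dissolves bone. They were taken by gene symbol from the probe-to-gene annotation of the array, with the probe set of highest mean standing for a gene that has several and with no filter on level. All 10 were found among the 19938 genes measured, and each had exactly 1 probe set. RNA of mouse bone marrow was read on 6 single-colour Affymetrix arrays, 3 from diabetic and 3 from wild type mice. The labels write the genotype of the diabetic mice as BKS.Cg-Dock7m -/- Leprdb/JNju and that of the wild type mice as BKS.Cg-Dock7m +/+ Leprdb/JNju. Lepr encodes the leptin receptor, and db is a variant of it used as a mouse model of obesity and type 2 diabetes. All mice were males aged 10 weeks. Marrow was flushed from the shafts of the long leg bones, and the labels name neither a treatment nor a sort. The array mixed all flushed cells, so fewer cells of a type and less RNA per cell cannot be told apart. The sources used here do not say whether animals were pooled for an array, so each p-value reflects only the spread among these 6 samples, which may be technical.

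Osteoclasts form when precursors of the monocyte lineage receive the growth factor M-CSF and the ligand RANKL. RANKL binds the receptor RANK, the product of Tnfrsf11a, and with co-stimulation through receptors such as OSCAR this leads to calcium signals and to the transcription factor NFATc1. NFATc1, with Fos, PU.1 and MITF, switches on genes for cell fusion and for resorption, in which the cell pumps acid onto the bone and releases proteases. Osteoclasts sit on bone surfaces, and flushing collects cells from inside the marrow cavity.

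The promoters of the members are shown here for the M-box, a motif bound by MITF. Windows from 250 bases before to 50 bases after a start site in RefSeq on GRCm38.p6 were searched for 6 of the 10 members. These members were Tnfrsf11a, Oscar, Acp5, Ctsk, Clcn7 and Calcr, with 10 windows in all. The other members, Nfatc1 among them, were not searched, so the counts below do not cover them. The M-box was searched as TCATGTG and TCACGTG on both strands. It lay in 3 of the 10 windows, while 7.4% of all 32851 windows held either form. By gene, it lay in 2 of 6, Acp5 and Clcn7, against 8.4% of all 27025 genes with a window. Clcn7 encodes a chloride transporter of the acid compartment, and Acp5 the tartrate-resistant acid phosphatase TRAP, a classic osteoclast stain. The windows below are given 5′ to 3′ on the strand of the gene, with the M-box letters in capitals. Of 3 Acp5 windows, only the 1 shown held an M-box. It is chr9:22130549-22130848, minus strand, with the motif read on the opposite strand from position -90 before the start site. The Clcn7 window is chr17:25133141-25133440, plus strand, with 2 places, the second of which reads as an M-box on both strands.
Acp5: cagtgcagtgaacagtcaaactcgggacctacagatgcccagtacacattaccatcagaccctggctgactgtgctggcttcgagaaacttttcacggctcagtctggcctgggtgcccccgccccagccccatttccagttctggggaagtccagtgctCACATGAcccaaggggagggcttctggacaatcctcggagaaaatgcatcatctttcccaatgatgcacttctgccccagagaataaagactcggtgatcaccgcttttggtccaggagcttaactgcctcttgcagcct
Clcn7: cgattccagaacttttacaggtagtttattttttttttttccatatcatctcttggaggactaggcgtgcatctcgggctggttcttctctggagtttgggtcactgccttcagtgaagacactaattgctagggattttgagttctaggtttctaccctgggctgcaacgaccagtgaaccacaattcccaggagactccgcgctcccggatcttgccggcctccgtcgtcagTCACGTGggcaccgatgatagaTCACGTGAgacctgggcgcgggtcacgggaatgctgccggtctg
The third window with an M-box was a second start site of Clcn7. The AP-1 motif TGANTCA, bound by Fos family dimers, lay in 0 of the 10 windows, against 7.81% of all windows. The NFAT core GGAAA lay in 7 of 10, against 61.3%. The PU.1 core GAGGAA, which overlaps the NFAT core where an A follows it, lay in 2 of 10, against 28.3%. These counts describe letters in short windows and say nothing of binding.

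The question was whether osteoclast genes differed between diabetic and wild type marrow. In the limma fit with Benjamini-Hochberg adjustment over all 19938 genes, 0 of the 10 passed the threshold of 0.05, against 57 of all genes (0.286%). None passed an unadjusted p of 0.05 either, where 5.9% of all genes did. All log2 changes lay between 0.0052 and 0.14, with a median of 0.10 against 0.0035 over all genes. All 10 changes were above 0, as were 51.7% of all genes, but that of Ocstamp turned to -0.0048 after a further quantile normalization and to -0.0054 after centring each array on its median. The adjusted p of the members ran from 0.980 for Oscar to 0.999 in limma.

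**Figure D1:**
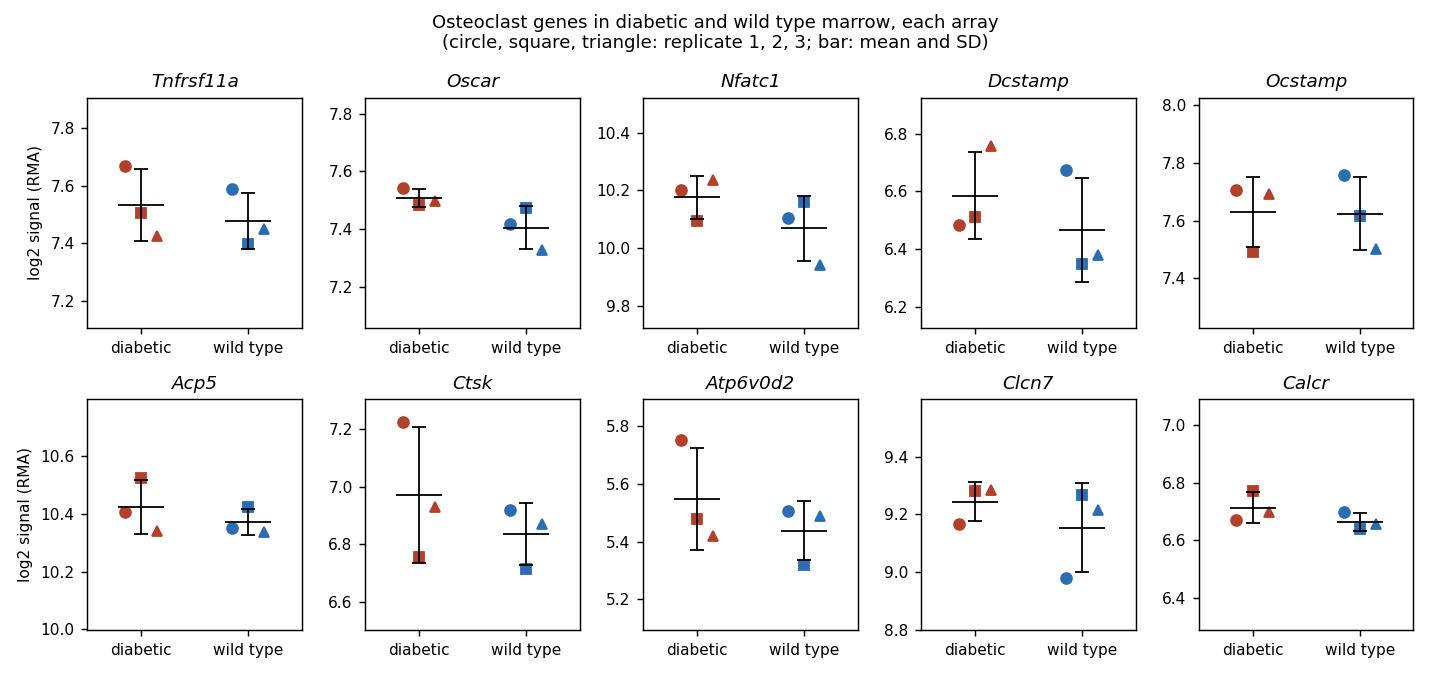
Log2 RMA signal (y axis) of each osteoclast gene on the 3 diabetic (left) and 3 wild type arrays (right), with mean and SD as bars. Every panel spans the same height of log2 signal. Oscar is the 1 gene whose diabetic points all lie above its wild type points.

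Levels were read first against a background, the olfactory receptor genes, which are made by sensory neurons of the nose. The 95th percentile of the mean log2 signal of 1027 such genes was 7.34. Signals of different probe sets depend on their probes, so this is only a rough floor. The changes of these background genes between the groups were above 0 for 589 of 1027, with a median of 0.02. Nfatc1 (mean log2 signal 10.12 over the 6 arrays), Acp5 (10.40) and Clcn7 (9.20) lay well above it, and Ocstamp (7.63), Tnfrsf11a (7.51) and Oscar (7.46) lay just above. Ctsk (6.90), Calcr (6.69), Dcstamp (6.53) and Atp6v0d2 (5.49) lay below. These 4 are defining markers of the osteoclast, and their signal was within the range of the background genes. Nfatc1, Acp5 and Clcn7, the members with clear signal, are also used by other blood cells, Nfatc1 by lymphocytes, Acp5 by macrophages and Clcn7 in the lysosomes of most cells.

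Of the receptors, Tnfrsf11a, which encodes RANK, had log2 signals of 7.67, 7.51 and 7.43 on diabetic arrays 1 to 3 and of 7.59, 7.40 and 7.45 on wild type arrays 1 to 3. The groups overlapped, with the first array of each group the highest. The change, diabetic minus wild type, was 0.06 ± 0.08 in log2 units (SE, n = 3 per group), with a 95% interval from -0.14 to 0.25. It was -0.01 without diabetic replicate 1. Oscar, an immunoglobulin-like receptor that binds exposed collagen and signals with RANK, had 7.54, 7.48 and 7.50 on diabetic arrays and 7.42, 7.47 and 7.33 on wild type arrays. All 3 diabetic values lay above all 3 wild type values, by a gap of 0.012 between the nearest arrays. It was the 1 member of 10 whose groups did not overlap, while 10.8% of all genes had such groups and 6.01% had them with diabetic above. The change of Oscar was 0.10 ± 0.07, with a 95% interval from -0.05 to 0.25, or at most 1.19-fold higher, and it was 0.06 without wild type replicate 3.

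Nfatc1, the transcription factor that drives the later genes, had log2 signals of 10.20, 10.09 and 10.24 on diabetic arrays and 10.10, 10.16 and 9.94 on wild type arrays. The groups overlapped, and wild type replicate 3 was the lowest array. The change was 0.11 ± 0.08 (SE, n = 3 per group), with a 95% interval from -0.07 to 0.29, and it was 0.04 without wild type replicate 3.

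The fusion genes encode 2 membrane proteins that precursors need to join into a multinucleated cell. Dcstamp had log2 signals of 6.48, 6.51 and 6.76 on diabetic arrays and 6.67, 6.35 and 6.38 on wild type arrays. The third diabetic and the first wild type array stood above the other 4. Its change was 0.12 ± 0.11 (SE, n = 3 per group), and it ran from 0.03 without diabetic replicate 3 to 0.22 without wild type replicate 1. Ocstamp had 7.71, 7.49 and 7.69 on diabetic arrays and 7.76, 7.61 and 7.50 on wild type arrays. Both groups covered nearly the same range, and the change was 0.0052 ± 0.09, with a 95% interval from -0.20 to 0.21. Its direction turned without diabetic replicate 1, diabetic replicate 3 or wild type replicate 3, where it was -0.03, -0.03 and -0.06.

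The resorption genes were Acp5, Ctsk, Atp6v0d2 and Clcn7. Acp5 had log2 signals of 10.41, 10.52 and 10.34 on diabetic arrays and 10.35, 10.42 and 10.34 on wild type arrays. The groups overlapped, and the change was 0.05 ± 0.07 (SE, n = 3 per group), with a 95% interval from -0.11 to 0.21. The upper end is a 1.16-fold higher level in diabetic marrow. Without diabetic replicate 2, its highest array, the change of Acp5 was 0.0024.

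Ctsk encodes cathepsin K, the protease that cuts bone collagen, and had log2 signals of 7.22, 6.76 and 6.93 on diabetic arrays and 6.92, 6.72 and 6.87 on wild type arrays. Diabetic replicate 1 stood above the other 5 arrays, and the groups overlapped. The change was 0.14 ± 0.12 (SE, n = 3 per group), the largest of the 10, and was 0.0083 when diabetic replicate 1 was left out. Atp6v0d2, a subunit of the proton pump that acts also in fusion, had 5.75, 5.48 and 5.42 on diabetic arrays and 5.51, 5.32 and 5.49 on wild type arrays. It had the same high array, and its change was 0.11 ± 0.10, or 0.01 without diabetic replicate 1. With array weights, in which limma gives arrays unequal influence, the changes were 0.31 for Ctsk and 0.26 for Atp6v0d2. Their unadjusted p in limma was then 0.0142 and 0.0174, and their adjusted p was 0.190 and 0.204.

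Clcn7 had log2 signals of 9.17, 9.28 and 9.28 on diabetic arrays and 8.98, 9.27 and 9.22 on wild type arrays. Wild type replicate 1 lay below the other 5 arrays. The change was 0.09 ± 0.09 (SE, n = 3 per group), but 0.0015 without wild type replicate 1, and -0.01 with array weights. Calcr encodes the receptor for calcitonin, the hormone that stops osteoclasts from resorbing, and had 6.67, 6.77 and 6.70 on diabetic arrays and 6.70, 6.64 and 6.66 on wild type arrays. The groups overlapped within a narrow span, and the change was 0.05 ± 0.06, with a 95% interval from -0.09 to 0.19. Without diabetic replicate 2, its highest array, the change of Calcr was 0.02.

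**Figure D2:**
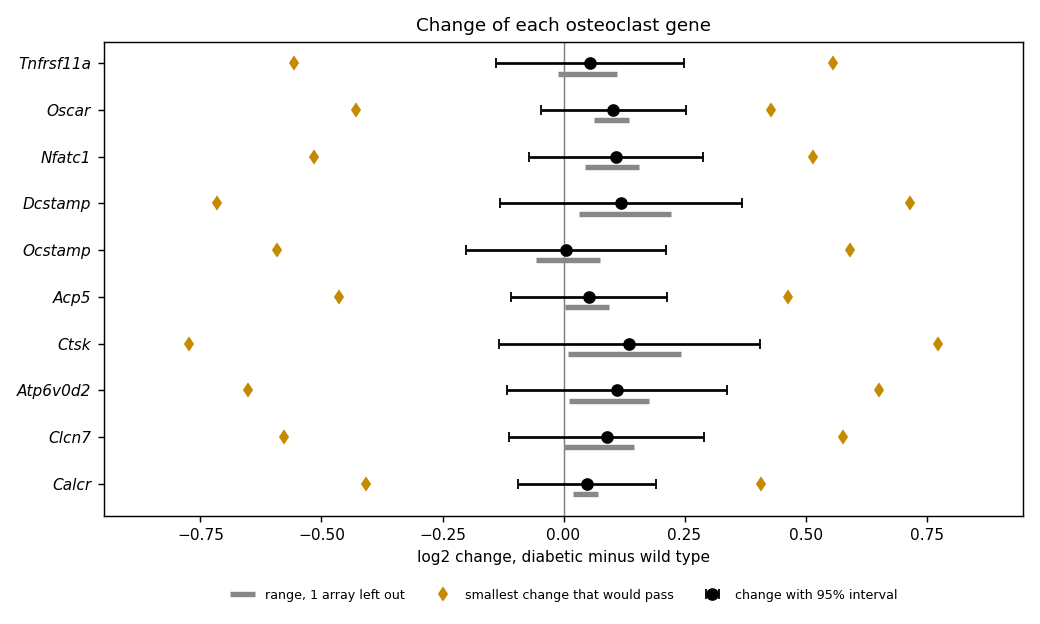
Log2 change (x axis, diabetic minus wild type) of each osteoclast gene (rows), with the 95% interval of the limma fit, the range when 1 array is left out in grey, and as diamonds the smallest change that would have passed at that gene's error. Every interval holds 0 and lies inside its diamonds. The changes lie above 0, but that of Ocstamp, at 0.0052, turns below 0 under both other scalings.

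How large a change could have been called was worked out from the error of each gene and the largest unadjusted p among the 57 genes that passed, 0.000139. At that p in limma a member had to change by 0.41 (Calcr) to 0.77 (Ctsk) on the log2 scale, or 1.33-fold to 1.71-fold. The widest 95% interval, that of Ctsk, reached from -0.13 to 0.40, or up to 1.32-fold higher. The narrowest, that of Calcr, reached 1.14-fold higher. Smaller changes were not detectable with 3 arrays per group. For the 4 members below the olfactory 95th percentile, a change in the cells could be larger than the change in signal. The same holds for Ocstamp, Tnfrsf11a and Oscar, which lay just above it.

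The pattern over the arrays was then compared between members. After each gene was centred on its own mean, the mean of the 10 members was 0.09, -0.0019 and 0.04 on diabetic arrays 1 to 3 and 0.0073, -0.06 and -0.08 on wild type arrays 1 to 3. The groups overlapped in this mean. Diabetic replicate 1 was the highest array for 4 members, Tnfrsf11a, Oscar, Ctsk and Atp6v0d2, and wild type replicate 2 the lowest for 5. Tnfrsf11a and Atp6v0d2 had a Pearson correlation of 0.91 over the 6 arrays, Ctsk and Atp6v0d2 of 0.90, and Oscar and Nfatc1 of 0.90. The 45 pairs ran from -0.63 to 0.91 with a median of 0.22, and the median was -0.03 when the groups' own means were taken out. The arrays share their normalization, and 6 points allow high values for any pair, so these are descriptions.

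**Figure D3:**
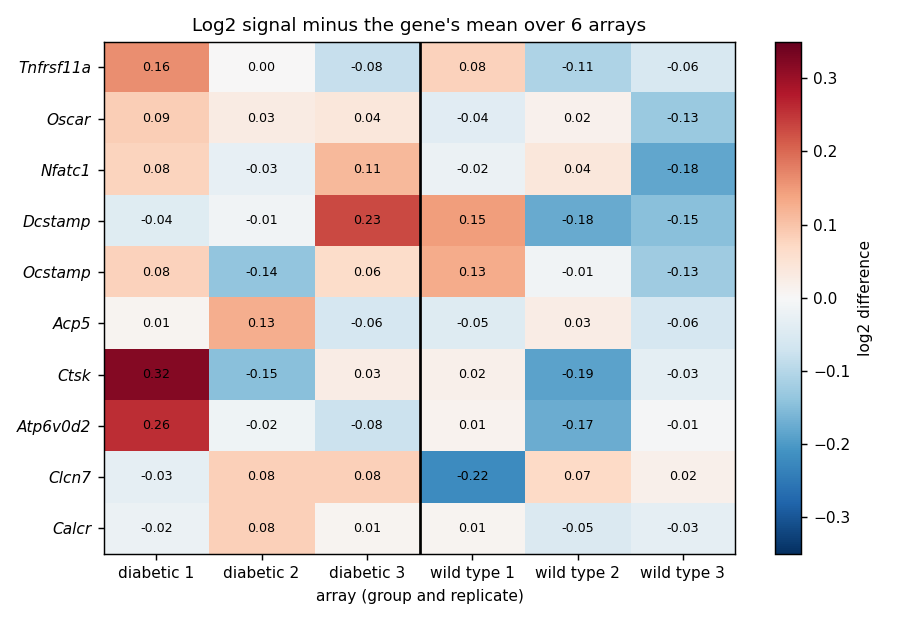
Log2 signal of each osteoclast gene (rows) minus its mean over the 6 arrays, by array (columns, diabetic left of the line). The first diabetic array is high for Ctsk (0.32) and Atp6v0d2 (0.26), and the first wild type array is low for Clcn7 (-0.22).

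The 5 other genes most like the mean of the members, among 11936 genes at or above the 40th percentile of level, were Slc39a4, Fan1, Tbl1xr1, Atp6v0b and Lemd2. Their Pearson correlations over 6 arrays ran from 0.983 to 0.996. In all, 157 of the 11936 genes were above 0.9, and 6 points allow high values for any gene, so these are descriptions. Atp6v0b encodes a subunit of the same proton pump as Atp6v0d2, and its change was 0.16 ± 0.07 (SE, n = 3 per group; limma adjusted p 0.843). The changes of all 5 ran from 0.10 (Lemd2) to 0.22 (Fan1). The members' mean averaged 0.04 on diabetic and -0.04 on wild type arrays. Changes above 0 therefore follow from how the 5 genes were picked.

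The rest of the pathway was read from 8 lists with 66 genes, of which 62 had a probe set with 1 symbol and 4 were not analysed here. None of the 62 passed over all genes in limma, and 3 had an unadjusted p under 0.05, Fos, Spi1 and Dock5, where 5.9% of all genes did. Of the 62, 46 had a change above 0 and 16 below (74.2% above, against 51.7% of all genes), with a median of 0.03. This count depends on the scaling, because some changes near 0 turned below 0 under the other scalings. With a further quantile normalization and with median centring, Csf1 was at -0.0043 and -0.0036, and Irf8 at -0.0029 and -0.0077. The median over all genes was then -0.010 and -0.0071. Dock5 lies outside the rule for named genes and was chosen after its values were seen.

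Of the ligands, 4 were measured and 0 passed. Tnfsf11, which encodes RANKL, was at -0.01 ± 0.07 (log2 change, SE, n = 3 per group), Tnfrsf11b, which encodes its decoy receptor osteoprotegerin, at 0.0079 ± 0.06, and Csf1, which encodes M-CSF, at 0.0070 ± 0.06. Tnfsf11 had log2 signals of 9.14, 9.05 and 9.13 on diabetic arrays and 9.21, 9.09 and 9.06 on wild type arrays. The 3 genes that set the signal for osteoclast formation had groups that overlapped, and their 95% intervals together reached from -0.17 to 0.14. Tnfrsf11b (mean log2 signal 6.91) lay below the olfactory 95th percentile, so for it a change in the cells could be larger than the change in signal.

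Of 7 receptors and adaptors, 0 passed, and the groups of all 7 overlapped. Csf1r, the M-CSF receptor, was at -0.0087 ± 0.07, and the integrin chains Itgb3 and Itgav were at 0.01 ± 0.16 and 0.09 ± 0.07. Of 11 signalling genes 0 passed. Traf6, the adaptor of RANK, was at -0.04 ± 0.10, Map3k7, a kinase below it, at 0.06 ± 0.06, and Nfkb2, an NF-kB subunit, at -0.02 ± 0.09.

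The activating transcription factors held the largest change of the 8 lists, though 0 of 6 passed over all genes. Fos had log2 signals of 10.28, 10.05 and 9.001 on diabetic arrays and 9.25, 9.22 and 8.82 on wild type arrays. The first 2 diabetic arrays were high and the third was not, so the groups overlapped. The change of Fos was 0.68 ± 0.29 (SE, n = 3 per group), with a limma p of 0.0477 before and 0.834 after adjustment. Fos is also an immediate early gene that responds to handling. Spi1, which encodes PU.1 of all myeloid cells, had 12.46, 12.23 and 12.44 on diabetic arrays and 12.14, 12.22 and 12.17 on wild type arrays. The diabetic values lay above the wild type values by a narrow gap, and the change was 0.20 ± 0.08 (limma adjusted p 0.793). Fosl2, another Fos family member, was at 0.12 ± 0.11.

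Of 5 inhibitors of osteoclast formation, 0 passed. Irf8, which holds precursors back, was at 0.0029 ± 0.10, Bcl6, a repressor of osteoclast genes, at 0.15 ± 0.09, and Rbpj, a repressor of the response to tumour necrosis factor, at 0.04 ± 0.07. Of 10 further resorption genes, 0 passed, with changes from -0.01 to 0.11. Mmp9, a collagenase also made by neutrophils, was at 0.11 ± 0.08, Mmp14 at 0.03 ± 0.09, and Car2, the carbonic anhydrase that supplies acid and is abundant in red cell precursors, at 0.05 ± 0.11.

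Of 6 fusion and cytoskeleton genes, 0 passed. Adam8, Cd47 and Cd9 were at 0.03 ± 0.12, 0.0029 ± 0.07 and 0.12 ± 0.11. Dock5, an activator of Rac needed for the attachment of osteoclasts, was at 0.22 ± 0.10 (limma adjusted p 0.822). Of 13 proton pump subunits that most cells share, 0 passed and the median change was 0.02. Atp6v0a1 and Atp6v0a2 were at 0.08 ± 0.10 and -0.03 ± 0.06.

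**Figure D4:**
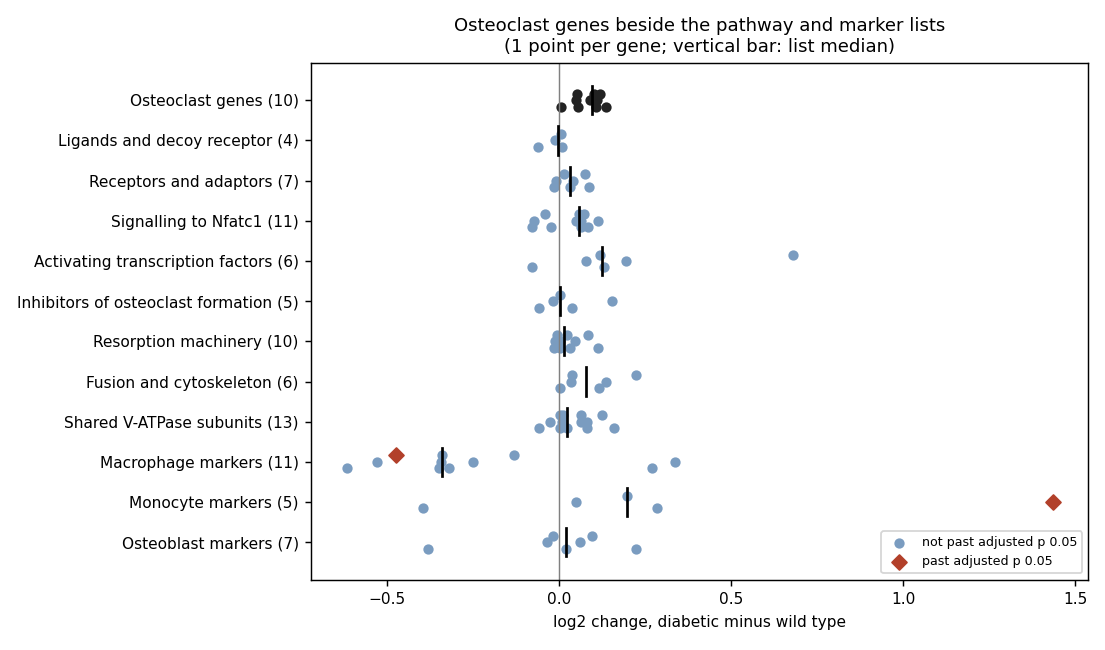
Log2 change (x axis, diabetic minus wild type) of each gene in the osteoclast list, the 8 pathway lists and 3 marker lists (rows, number of genes in brackets), with a bar at each list's median and diamonds for genes past an adjusted p of 0.05. The osteoclast genes lie between 0.0052 and 0.14, with Ocstamp turning below 0 under other scalings, while the median of the macrophage markers is -0.34. All lists were chosen with earlier results of these data known.

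Markers of related cells were read beside these values. Macrophage markers, of the sister cell of the osteoclast, had 11 measured genes. Of these, 9 had a change below 0 (9629 of all 19938 genes did) and 2 above, with a median of -0.34. Their mean log2 signal was 9.46, 9.58 and 9.60 on diabetic arrays and 9.69, 9.80 and 9.89 on wild type arrays, so the groups did not overlap. The list was chosen with earlier results of these data known, so its median and mean are descriptions and not a test. Mertk, a receptor for the uptake of dead cells, fell by 0.47 ± 0.07 log2 units (SE, n = 3 per group; limma adjusted p 0.0443), and this call was lost when any 1 of the 6 arrays was left out (adjusted p from 0.0686 to 0.270) and with median centring (0.0646). The complement genes C1qa and C1qb were at -0.32 ± 0.10 and -0.62 ± 0.12, and Adgre1, which encodes F4/80, at 0.27 ± 0.13, all without passing. Cd163, the other marker above 0, was at 0.34 ± 0.06 (limma adjusted p 0.105). Its diabetic values all lay above its wild type values, and it was named after its values were seen. Whether the osteoclast list and the macrophage list differ was not tested.

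Of 5 monocyte markers, 1 passed. Vcan, the proteoglycan versican, rose by 1.43 ± 0.21 log2 units (SE, n = 3 per group; limma adjusted p 0.0443), and the call held only without wild type replicate 1 (adjusted p 0.0199) when arrays were left out in turn, with adjusted p from 0.0798 to 0.270 for the other 5. The Vcan call was also lost with the level filter, a further quantile normalization, median centring and trend and robust eBayes (limma adjusted p from 0.0506 to 0.0768). Ccr2 and F13a1 were at 0.05 ± 0.10 and 0.28 ± 0.10. Of the 5 monocyte markers, 4 changes were above 0 and 1 was below, that of Ms4a4c at -0.40 ± 0.12, whose diabetic values all lay below its wild type values (limma adjusted p 0.639). Ms4a4c was named after its values were seen. Of 7 osteoblast markers, 0 passed, and 4 lay below the olfactory 95th percentile. Alpl, the alkaline phosphatase of osteoblasts, was at -0.38 ± 0.12, Col1a1 at 0.10 ± 0.11 and Col1a2 at 0.06 ± 0.11. The mean log2 signal of the osteoblast list was 7.62, 7.54 and 7.46 on diabetic arrays and 7.70, 7.47 and 7.46 on wild type arrays. The first array of each group was the highest for this list, as it was for the 4 members Tnfrsf11a, Ocstamp, Ctsk and Atp6v0d2. The part of these markers in the osteoclast values was not tested. All 7 measured marrow markers, Mpo and Elane among them, lay above the olfactory 95th percentile.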

How the data were processed

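The deposited values are log2 signals, 1 per probe set and array. Per the submitters' processing notes, the authors ran RMA in Affymetrix Expression Console. No version or genome build is named in the sources used here. RMA equalizes the distributions of the arrays, so a shift shared by most genes cannot be seen. Array medians were 7.67 to 7.73, and the precision is limited by having 3 arrays per group. Of 35556 probe sets, 21789 had 1 gene symbol. They gave 19938 genes, with the set of highest mean for the 999 genes with several. Symbols were checked against RefSeq by gene ID, where 21698 matched and 0 changed. Groups came from the sample titles. All genes were fitted with limma 3.58.1 (lmFit, then eBayes) under R 4.3.3, with data read by the data.table package, version 1.17.8, without a level filter or covariate, and p was adjusted over all genes by Benjamini-Hochberg with a threshold of 0.05. Intervals are 95% intervals of that fit, not adjusted for the number of genes. The fit was tested on simulated data. Figures used matplotlib 3.10.9 in Python 3.11.15.

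The members and lists were chosen with earlier results of these data known. Genes named are the members, the first 3 of each list, list genes past the threshold and the 5 genes most like the members; of the marrow tissue markers 2 are named. Alternatives were a level filter at the 40th percentile (7.52), averaging over probe sets of 1 gene, a further quantile normalization, median centring, trend and robust eBayes, array weights, a replicate block, an adjusted p of 0.10, and leaving out each array.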

Additional observations from a re-analysis of the deposited data

How the results depend on the processing

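None of the 10 osteoclast genes and none of the pathway genes passed in any of the alternatives run, and the smallest adjusted p of a member was 0.190 in limma, for Ctsk with array weights. Of 124 member changes under 13 alternatives, 117 were above 0. The 7 below 0 were Ocstamp at -0.0048 with a further quantile normalization and -0.0054 with median centring, Clcn7 at -0.012 with array weights, and, leaving out 1 array, Tnfrsf11a (range -0.012 to 0.11) once and Ocstamp (range -0.056 to 0.075) 3 times. With the level filter 4 members were tested, and 4 were above 0. With array weights 2 members had an unadjusted p under 0.05. The count over all genes, 57 with 14 higher and 43 lower, was 235 with 75 higher and 160 lower with array weights, and 9 genes were higher with median centring. Leaving out 1 array gave 3 to 71, with 0 to 13 higher and 2 to 58 lower; it was 3 without diabetic replicate 2, 6 without diabetic replicate 1, 14 without diabetic replicate 3 and 16 without wild type replicate 2. The cause was not tested. With the replicate block 7 genes passed, 1 higher and 6 lower. Deviations of same-numbered arrays correlated at 0.24, 0.03 and -0.04 for numbers 1, 2 and 3. Those of arrays with different numbers ran from -0.25 to 0.21. With 3 arrays per group these values cannot decide whether same-numbered arrays belong together. The labels give no pairing, so the block is only an alternative. With the block, Mertk had an adjusted p of 0.127 and Vcan of 0.0226 in limma.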
